A study of Mus musculus with 37 samples.

Results

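The transcripts described here belong to mitochondrial fatty acid oxidation in brown adipose tissue (BAT). Of 24657 gene symbols on the arrays, 9 were taken by name: *Cpt1a*, *Cpt2*, *Acadm*, *Acadl*, *Acadvl*, *Hadha*, *Hadhb*, *Acaa2* and *Etfdh*. Each was found as 1 of the 41155 probe sets, so no choice between probe sets was needed. The arrays came from 35 BXD strains, which are inbred mice descended from crosses of C57BL/6J (B6) and DBA/2J (D2), and from both parents. All groups were males on Harlan 2018 chow, killed at 29 weeks of age after an overnight fast and perfused. RNA of about 5 mice per strain was pooled onto 1 array, so the strains are the samples, the spread between animals of a strain is not seen, and a strain's own value has no error. Values are in rescaled units, in which every array has a mean of 8 and a standard deviation (SD) of 2.

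Long-chain fatty acids enter mitochondria as carnitine esters, made by CPT1 at the outer membrane and turned back into acyl-CoA by CPT2 inside. The β-oxidation spiral then shortens the acyl-CoA in repeated rounds of dehydrogenation, hydration, a further dehydrogenation and thiolytic cleavage, and the electrons of the first step pass through the electron transfer flavoprotein to ubiquinone. Brown fat burns fatty acids in this way to make heat, with the uncoupling protein UCP1 dissipating the proton gradient, and nuclear receptors of the PPAR and ERR families are known regulators of these genes.

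The tissue label was checked against marker genes. All 9 thermogenic (brown fat) markers lay above background, taken as the 95th percentile of 1128 olfactory receptor probe sets (7.94), and *Ucp1* averaged 15.37 ± 0.23 (SD, n = 35). All 13 skeletal muscle markers were above background as well. The mean level of that list ran from 9.99 in BXD65 to 13.50 in BXD97, with *Acta1*, skeletal actin, between 12.05 and 15.31, and was 12.91 in B6 and 12.63 in D2. Of 8 liver markers, 3 passed the background limit, and their list mean stood apart in BXD70 (12.56) and D2 (10.53) against 7.20 in B6. White fat markers passed in 5 of 6 genes (list mean 9.10 to 10.56), blood markers in 2 of the 4 found (7.23 to 7.94) and lymphocyte markers in 1 of 7 (7.14 to 8.10). In pooled tissue, fewer cells of a type and less RNA per cell cannot be told apart.

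RefSeq promoters (assembly GRCm38.p6) were given for 8 of the 9 genes, all but *Acaa2*. They are shown because nuclear receptors of the families named above bind variants of AGGTCA and because 1 pair of promoters overlaps. The letters AGGTCA, on either strand, occurred between 250 bases before and 50 bases after the start in 3 of the 8, against 16.3% of 32851 mouse promoters. A direct repeat with a single base between, AGGTCANAGGTCA, occurred in 0 of 8 and in 0.0396% of all, and the longer form TCAAGGTCA in 0 of 8 and in 0.423% of all. A match of these letters is a description and not a site of binding. The 250 bases before each start are printed 5′ to 3′ on the gene's strand. In *Cpt1a* (chr19:3323051-3323300, plus strand), *Acadm* (chr3:153944644-153944893, minus strand) and *Acadvl* (chr11:70015429-70015678, minus strand), capitals mark AGGTCA or its reverse complement TGACCT.
Cpt1a: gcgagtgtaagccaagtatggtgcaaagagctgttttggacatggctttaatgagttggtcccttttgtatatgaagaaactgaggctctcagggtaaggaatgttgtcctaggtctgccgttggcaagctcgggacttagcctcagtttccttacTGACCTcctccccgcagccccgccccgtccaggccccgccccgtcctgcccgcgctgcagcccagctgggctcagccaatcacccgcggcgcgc
Acadm: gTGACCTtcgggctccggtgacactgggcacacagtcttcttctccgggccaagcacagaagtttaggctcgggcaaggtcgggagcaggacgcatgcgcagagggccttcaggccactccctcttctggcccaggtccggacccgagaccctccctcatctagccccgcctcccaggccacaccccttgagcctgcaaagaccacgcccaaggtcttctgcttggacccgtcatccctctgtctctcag
Acadvl: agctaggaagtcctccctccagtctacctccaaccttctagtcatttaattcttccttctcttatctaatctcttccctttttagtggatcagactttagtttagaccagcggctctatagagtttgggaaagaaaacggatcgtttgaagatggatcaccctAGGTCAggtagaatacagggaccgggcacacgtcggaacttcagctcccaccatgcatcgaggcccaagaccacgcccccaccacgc

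The match lay at -94 to -89 from the start in *Cpt1a*, at -249 to -244 in *Acadm* and at -87 to -82 in *Acadvl*. *Hadha* and *Hadhb*, the α and β subunits of one enzyme, start 272 bases apart and run in opposite directions. In the *Hadha* stretch (chr5:30154981-30155230, minus strand), capitals mark the 228 bases that also lie within the 250 bases before *Hadhb* (chr5:30155003-30155252, plus strand).
Hadha: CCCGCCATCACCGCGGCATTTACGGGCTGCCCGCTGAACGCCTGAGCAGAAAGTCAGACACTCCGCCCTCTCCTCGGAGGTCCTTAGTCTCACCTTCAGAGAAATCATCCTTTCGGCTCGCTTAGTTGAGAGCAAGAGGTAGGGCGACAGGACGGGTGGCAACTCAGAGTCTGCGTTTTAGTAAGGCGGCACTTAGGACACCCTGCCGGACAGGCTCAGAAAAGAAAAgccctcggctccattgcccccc

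Across the 35 strains, most of the oxidation transcripts were abundant and had a small range, and *Cpt1a* varied most. All 9 lay above background, also at its stricter limit of 8.82 (99th percentile), and 7 had a mean of at least 13, as did 603 probe sets in all. The range from the lowest to the highest strain corresponded to a median of 1.47-fold over the 9, against 1.86-fold over all probe sets and 1.58-fold over those with a mean of at least 13. Besides *Cpt1a*, *Cpt2* (1.62-fold) exceeded the last of these medians. These folds are nominal and assume that an array's SD was 2 on a log2 scale before it was rescaled. Brightness differs between probe sets for reasons of probe design, so the genes' levels are not set against each other.

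*Cpt1a*, which encodes the liver-type CPT1, the step that malonyl-CoA inhibits, averaged 10.71 ± 0.27 (SD, n = 35). Its lowest strains were BXD87 at 10.06 and BXD68 at 10.14, the median was 10.75 and the highest strains were BXD61 at 11.05 and BXD80 at 11.41. BXD80 thus stood alone at the top of a nominal 2.55-fold range. Its SD was above that of 78.0% of the 2935 probe sets within 0.5 units of its mean. The same share was 6.19% for *Acaa2* and 12.3% for *Acadvl*. For the other genes it lay between 25.3% (*Acadm*) and 42.7% (*Etfdh*). *Cpt2*, the inner membrane enzyme, averaged 14.03 ± 0.14, and ran from 13.57 in BXD97 through a median of 14.08 to 14.27 in BXD87. Its lower end was a single strain, as the next lowest, BXD84, was at 13.78.

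The acyl-CoA dehydrogenases carry out the first step of each round, for very long (*Acadvl*), long (*Acadl*) and medium (*Acadm*) chains. *Acadvl* averaged 13.39 ± 0.12, from 13.10 in BXD97 through a median of 13.38 to 13.67 in BXD75. *Acadl* averaged 14.45 ± 0.13, from 14.16 in BXD64 through a median of 14.43 to 14.62 in BXD80. *Acadm* averaged 15.15 ± 0.091, from 14.99 in BXD56 through a median of 15.14 to 15.30 in BXD95. The lowest and highest strains differed in name between the 3 genes, in places by very small margins. For *Acadm*, BXD97 was at 14.995, next to BXD56 at 14.994. For *Acadl*, BXD95 was at 14.613, next to BXD80 at 14.617. Each range was small, nominally 1.49-fold for *Acadvl*, 1.37-fold for *Acadl* and 1.24-fold for *Acadm*.

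*Hadha* and *Hadhb* encode the trifunctional protein, which hydrates, oxidises and cleaves long-chain intermediates. *Hadha* averaged 15.06 ± 0.11, from 14.69 in BXD97 through a median of 15.09 to 15.23 in BXD64. *Hadhb* averaged 10.04 ± 0.15, from 9.62 in BXD66 through a median of 10.05 to 10.26 in BXD103. BXD66, the lowest strain for *Hadhb*, was among the 3 highest for *Hadha*, at 15.21. *Acaa2*, the thiolase for medium chains, had the smallest spread of the 9, at 15.01 ± 0.079, from 14.85 in BXD61 through a median of 15.03 to 15.15 in BXD49. *Etfdh* encodes the dehydrogenase that hands electrons from the flavoprotein to ubiquinone, and averaged 14.17 ± 0.14, from 13.83 in BXD69 through a median of 14.18 to 14.39 in BXD87.

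**Figure D1:**
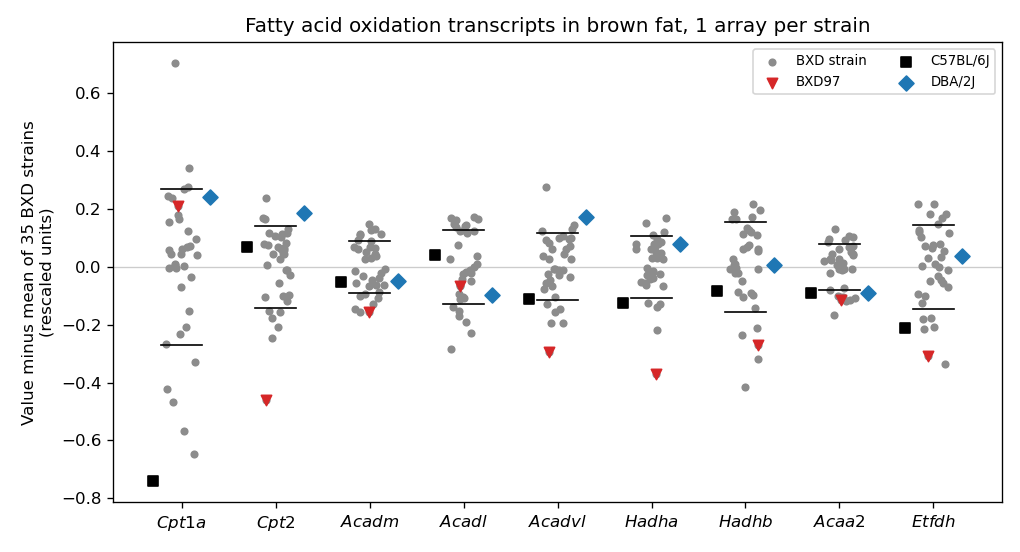
Value of each transcript minus its mean over the 35 BXD strains (vertical axis, rescaled units) for the 9 genes, with 1 point per strain and black lines at 1 SD above and below the mean. *Cpt1a* spreads most (SD 0.27) with B6 at its lower end (9.97), and BXD97 (red triangles) is the lowest strain for *Cpt2*, *Acadvl* and *Hadha*.

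The same strains recurred at the lower end. BXD97 was among the 3 lowest strains for 6 of the 9 genes and below the mean for 8 of them, and was at 10.92 for *Cpt1a*, above the mean. BXD69 was among the 3 lowest for 4 genes and also below the mean for 8. BXD97 had the lowest thermogenic list mean (11.55) as well as the highest muscle list mean (13.50), and the part of its tissue make-up in these values was not tested. In BXD69 the thermogenic score (the mean z-score of the list, scaled to an SD of 1) was -0.38, with the muscle score at 1.12. At the upper end, BXD87 was among the 3 highest strains for 4 genes (*Cpt2*, *Acadm*, *Acadvl* and *Etfdh*) while lowest for *Cpt1a*, and BXD75 was among the 3 highest for 3 genes.

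Between the parents, *Cpt1a* differed most. It read 9.97 in B6, below all 35 BXD strains, and 10.95 in D2, above 30 of them. The gap of 0.98 units exceeded that of 97.4% of all probe sets, whose 95th percentile was 0.77. The other 8 genes differed by at most 0.29 units (*Acadvl*, 13.28 in B6 and 13.56 in D2), and 7 of the 9 read higher in D2. The gaps of *Acadvl*, *Etfdh* (0.25) and *Hadha* (0.20) were above the median gap of all probe sets, 0.18. D2 read above 34 of the 35 BXD strains for *Cpt2* and for *Acadvl*. With 1 array per parent there is no error and no test. The D2 array carried liver transcripts, with *Alb*, the albumin gene, at 13.93 against 8.76 in B6. In BXD70, where *Alb* was at 14.96, *Cpt1a* was at 10.80, close to the BXD median. BXD70 is 1 array of another genotype, and the part of liver transcripts in the parental gap was not tested.

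Whether the oxidation genes rose and fell together across strains was asked with each gene in turn as the covariate of a limma fit over all other probe sets. A pair was called where the adjusted p was below 0.05 in both directions, and *r* is Pearson's. Of the 36 pairs, 28 had a positive *r* (median 0.30) and 5 were called, all of them among *Cpt2*, *Acadm*, *Acadvl*, *Hadha* and *Etfdh*. Over all probe sets the background was low, with 0.702% called with *Cpt2* as covariate, 0.051% with *Acadm*, 0.0389% with *Acadvl*, 0.0364% with *Hadha* and 0.224% with *Etfdh*. For the other covariates it was 0.573% with *Cpt1a*, 0% with *Acadl*, 0.00486% with *Hadhb* and 0.124% with *Acaa2*. No other of the 9 genes was called with any of these 4. With these 4, 6 slopes had an unadjusted p under 0.05. That limit was passed by 7.55% to 11.5% of all probe sets and 9.95% to 24.1% of those with a mean of at least 13. With the first 5 covariates, 5 or 6 of the other 8 genes passed it. The shares there were 8.54% to 11.6% of all probe sets and 20.4% to 26.9% of those with a mean of at least 13. The share called was not computed for such abundant probe sets.

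*Etfdh*, through which the acyl-CoA dehydrogenases of the first step deliver their electrons, was a partner in 4 of the 5 called pairs. Its *r* with *Hadha* was 0.81 (Spearman's rho 0.79, permutation p = 1e-05, the smallest that 100000 permutations can give, n = 35), with a limma adjusted p of 0.0034. With *Acadvl* the *r* was 0.76 (rho 0.72, limma adjusted p = 0.00896), with *Acadm* 0.73 (rho 0.76, adjusted p = 0.0332) and with *Cpt2* 0.67 (rho 0.57, adjusted p = 0.0253). The remaining called pair was *Cpt2* and *Hadha*, with an *r* of 0.76 (rho 0.62, limma adjusted p = 0.00944). Where a pair has 2 adjusted p-values, the higher is given.

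BXD97, low for each of these 5 genes, bore on the calls more than on the *r*. Without it, 1 pair was called, *Hadha* with *Etfdh* (*r* = 0.79, limma adjusted p = 0.0375). The *r* of the other 4 then lay at 0.72 for *Acadvl* with *Etfdh*, 0.70 for *Acadm* with *Etfdh*, 0.63 for *Cpt2* with *Hadha* and 0.61 for *Cpt2* with *Etfdh*. Without BXD69, or without BXD87, 3 pairs were called. Without the 2 strains farthest from the covariate's median, 0 pairs were called by limma and the *r* of these 5 ran from 0.57 to 0.74, and on ranks 0 were called. The 10 pairs among the 5 genes, a group picked after their values were seen, had *r* from 0.42 to 0.81.

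The other 26 pairs had a median *r* of 0.22 and none was called. *Hadha* and *Hadhb*, whose promoters overlap as printed above, had an *r* of 0.24 (permutation p = 0.168, limma adjusted p = 0.773) and a rho of 0.20. The *r* was 0.018 without the 2 strains farthest from the median of *Hadha*. Each of the 2 genes was read by 1 probe set, with a mean of 10.04 for *Hadhb* and 15.06 for *Hadha*. Whether the dimmer probe set limited this *r* was not tested. *Acadl* came closest to *Etfdh* (*r* = 0.51, limma adjusted p = 0.225) and *Acaa2* to *Acadm* (*r* = 0.55, adjusted p = 0.290). *Cpt1a* was called with none of the other 8, and its *r* with them ran from -0.43 (*Acadm*, adjusted p = 0.353) to 0.16 (*Hadhb*).

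**Figure D2:**
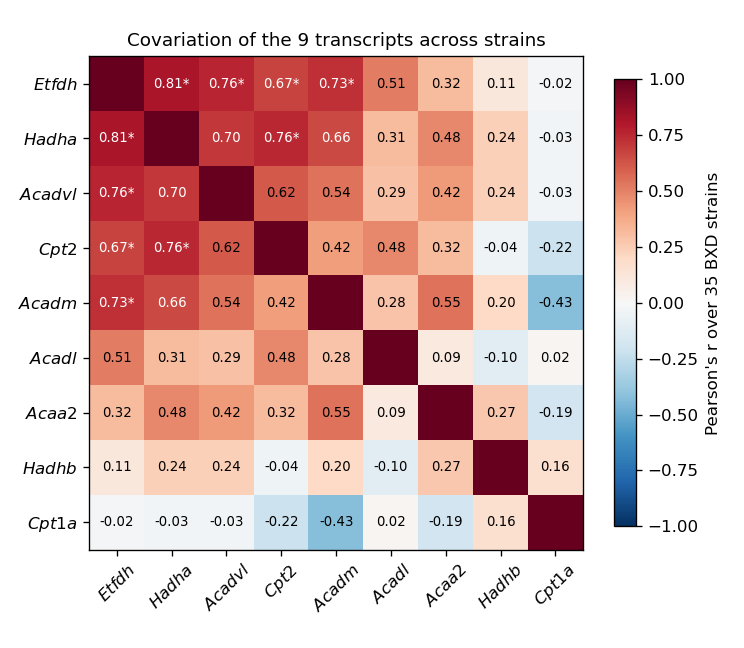
Pearson's *r* between the 9 transcripts over 35 BXD strains, as numbers and colour from -1 (blue) to 1 (red), with an asterisk on pairs called in both directions. *Etfdh*, *Hadha*, *Acadvl*, *Cpt2* and *Acadm* form the red corner, with 5 called pairs, and *Cpt1a* lies between -0.43 and 0.16.

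The second question was whether these genes follow the thermogenic genes. The thermogenic score was the covariate, and slopes are in rescaled units per SD of the score. *Cpt2* was called, with a slope of 0.0931 ± 0.0203 (SE, limma adjusted p = 0.0069). Its *r* was 0.66 (permutation p = 1e-05, the smallest possible) and its rho 0.60 (permutation p = 0.0002). That 1 call in 9 stands against 3.03% of all probe sets (1.54% with a positive and 1.49% with a negative slope) and 8.65% of those with a mean of at least 13. By this count of calls the genes stood little apart from other abundant transcripts. At an unadjusted p under 0.05 there were 6 of the 9, *Cpt1a* among them with a negative slope. The shares were 15.7% of all probe sets and 30.9% of those with a mean of at least 13. The slopes were positive in 7 of the 9 genes, against 54.4% of all probe sets, with a median of 0.0439 against 0.0054 over all.

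*Etfdh* (*r* = 0.44, limma adjusted p = 0.148), *Acadvl* (*r* = 0.44, adjusted p = 0.168), *Hadha* (*r* = 0.41, adjusted p = 0.238) and *Acadl* (*r* = 0.41, adjusted p = 0.214) had positive slopes short of the threshold. *Acadm* (*r* = 0.36) and *Acaa2* (*r* = 0.23) were weaker still, and *Hadhb* had a negative *r* of -0.15. *Cpt1a* ran the opposite way to *Cpt2*, with a slope of -0.134 ± 0.040 (*r* = -0.49, limma adjusted p = 0.059). BXD97 has the lowest thermogenic score, -2.49. Without it the slope of *Cpt2* was 0.0660 (adjusted p = 0.0706, *r* = 0.56) and none of the 9 genes was called. The highest scores were 1.78 in BXD51 and 1.73 in BXD70. BXD70 had the highest list mean (12.74) and is the strain whose array carried liver transcripts. Without BXD70, 2 genes were called, *Cpt2* (slope 0.0930, limma adjusted p = 0.00949) and *Cpt1a* (-0.146, adjusted p = 0.0404). *Cpt1a* was called without BXD101 too (-0.14, adjusted p = 0.0457).

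The third question concerned the muscle signal. With the muscle score as covariate no gene of the 9 was called by limma, against 1.81% of all probe sets (1.51% with a positive and 0.301% with a negative slope) and 3.68% of those with a mean of at least 13. At an unadjusted p under 0.05 there were 5 of the 9, against 10.8% of all probe sets and 23.6% of those with a mean of at least 13. The slopes were negative for all but *Cpt1a*, with a median of -0.0404 against -0.0031 over all probe sets. *Acadl* came nearest to a call (slope -0.0692 ± 0.0207, *r* = -0.54, limma adjusted p = 0.0836), and without BXD49 it was called (slope -0.0750, adjusted p = 0.0483). The *r* of *Acaa2* was -0.51, of *Hadha* -0.46, of *Cpt2* -0.43, of *Acadm* -0.38, of *Etfdh* -0.37, of *Acadvl* -0.32 and of *Hadhb* -0.26. *Cpt1a* alone had a positive slope, of 0.0381 ± 0.0455.

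**Figure D3:**
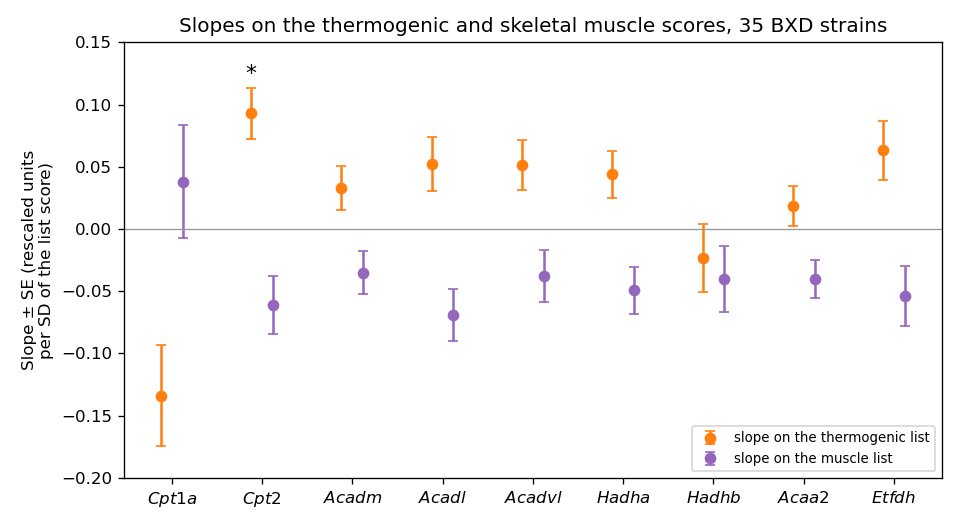
Slope of each transcript (points, with bars of 1 SE, rescaled units per SD of the score) on the thermogenic score (orange) and the skeletal muscle score (purple) over 35 BXD strains, fitted separately, with an asterisk at an adjusted p below 0.05. *Cpt2* has the one asterisk (0.0931), and 8 of the 9 muscle slopes lie below 0.

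The 2 scores themselves ran against each other (*r* = -0.45, permutation p = 0.00684), so both were entered in 1 model. With the muscle score held, *Cpt2* still rose with the thermogenic score (0.0822 ± 0.0227, limma adjusted p = 0.0465), against 2.06% of all probe sets called in either direction. That call was lost in 21 of the 35 fits that left out 1 strain, over which the slope ran from 0.0589 to 0.0925. With the thermogenic score held, all 9 muscle slopes were negative, none was called by limma, and 1.42% of all probe sets were. At an unadjusted p under 0.05 there were 3 of the 9, against 10.6% of all probe sets and 14.6% of those with a mean of at least 13. A test of the difference between the 2 slopes called *Cpt2* (0.106 ± 0.024, adjusted p = 0.0047) and *Acadl* (0.0838 ± 0.0241, adjusted p = 0.0415), against 3.49% of all probe sets. In 15 of the 35 fits without 1 strain, 1 gene was called in place of 2.

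Other programs of the tissue were compared in the same way, 1 list at a time. Some of their scores were correlated with the thermogenic or muscle score. The lipogenic score had an *r* of 0.43 with the thermogenic score (permutation p = 0.00983). The respiratory chain score had an *r* of -0.45 with the muscle score (permutation p = 0.00647). These scores were not entered together in a model, so their slopes are not separate from each other. With a score of 14 respiratory chain and citrate cycle genes, *Acaa2* was called (0.0634 ± 0.0131, *r* = 0.80, limma adjusted p = 0.0374), against 0.0826% of all probe sets. *Acadm* had an *r* of 0.68 (adjusted p = 0.103), and 8 of the 9 slopes were positive. Without BXD97 the slope of *Acaa2* was 0.0613 (*r* = 0.78) and its adjusted p 0.0894. Over the 35 fits that left out 1 strain, its slope ran from 0.0577 to 0.0663 and it was called in 22. Of the 14 genes taken singly, *Cyc1* (cytochrome c1), *Uqcrc1* (a complex III subunit) and *Cs* (citrate synthase) were called with *Acaa2*, with limma adjusted p-values of 0.0272, 0.0276 and 0.0276, against 0.124% of all probe sets. The 3 genes are part of the score, so their calls are not separate from the call with it.

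*Cpt1a* was called with a lipogenic score of 8 genes and fell as it rose (-0.172 ± 0.036, *r* = -0.64, rho -0.55, limma adjusted p = 0.00763), against 1.55% of all probe sets. The *r* was -0.68 without the 2 strains farthest from the median score, and *Cpt1a* was called in all 35 fits that left out 1 strain (slope -0.199 to -0.146, adjusted p at most 0.0303) but not on ranks (adjusted p = 0.0588). *Thrsp*, a lipogenic gene responsive to thyroid hormone, had an *r* of -0.78 with *Cpt1a* (adjusted p = 0.00068), and *Acly*, ATP citrate lyase, an *r* of -0.68 (adjusted p = 0.0041). *Srebf1* (adjusted p = 0.0106), *Elovl6* (0.0374) and *Acaca* (0.0391), which encodes the acetyl-CoA carboxylase that makes malonyl-CoA, were called as well, so that 5 of the 8 fell as *Cpt1a* rose, against the 0.573% of all probe sets given above. The 8 genes make up the score and covary with each other (mean pairwise *r* 0.65), so these 5 calls are not separate from the call with the score. BXD87, the lowest strain for *Cpt1a*, was the highest for *Acly* (15.14) and *Thrsp* (14.14). B6, lower still for *Cpt1a*, read 15.15 for *Acly* and 13.92 for *Thrsp*. D2, high for *Cpt1a* at 10.95, read 13.93 for *Acly* and 13.35 for *Thrsp*. Those D2 values also lay above the BXD means of 13.67 and 13.06, so D2 was high for *Cpt1a* and for both lipogenic genes.

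A score of 6 genes that respond to fasting called none of the 9, against 0.228% of all probe sets. At an unadjusted p under 0.05 there were 4 of the 9, against 8.40% of all probe sets and 17.5% of those with a mean of at least 13, and *Cpt1a* had the largest slope (0.156 ± 0.038, *r* = 0.57, limma adjusted p = 0.0732). Of its genes, *Angptl4*, an inhibitor of lipoprotein lipase, rose with *Cpt1a* (0.147 ± 0.034, adjusted p = 0.0300). *Plin5*, a lipid droplet protein, rose with *Acadvl* (0.176 ± 0.026, adjusted p = 0.0021) and *Etfdh* (0.147 ± 0.031, adjusted p = 0.0242). Scores of white fat, liver, lymphocyte and blood markers called none of the 9 by limma. At an unadjusted p under 0.05 the white fat score had 1, *Hadhb* (slope -0.0689, *r* = -0.45), against 11.8% of all probe sets, and the other 3 scores had 0. The shares of all probe sets called were 0% for white fat, 0.632% for liver, 0.0705% for lymphocytes and 0.00486% for blood.

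**Figure D4:**
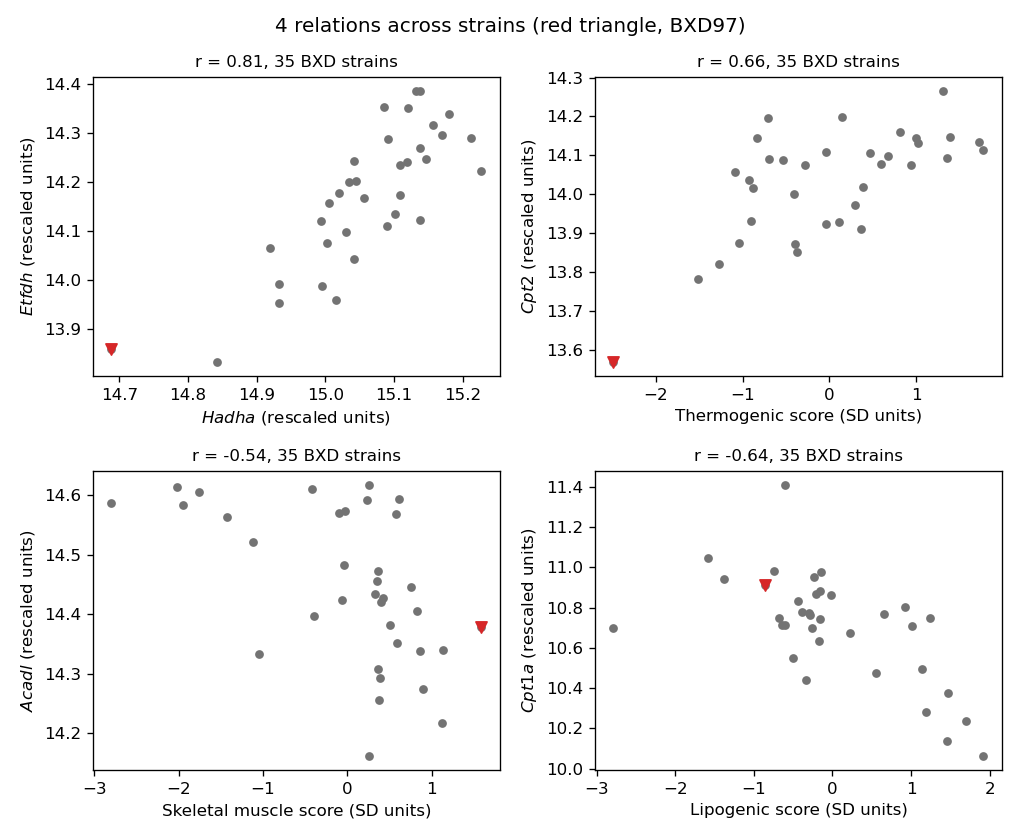
Scatter plots over 35 BXD strains of *Etfdh* on *Hadha*, *Cpt2* on the thermogenic score, *Acadl* on the skeletal muscle score and *Cpt1a* on the lipogenic score, in rescaled units and SD units, with 1 point per strain and BXD97 as a red triangle. BXD97 lies at the lower left of the upper panels (*r* = 0.81 and 0.66) and inside the cloud for *Cpt1a* (*r* = -0.64).

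Relatives of the 9 genes in the pathway were described from lists by role. In the carnitine shuttle and acyl-CoA supply, 5 of 6 genes were found by symbol, all but *Cpt1b*. *Slc25a20*, the carrier that brings acylcarnitine across the inner membrane, was called with *Cpt2*, *Acadvl*, *Hadha* and *Etfdh*, with a slope on *Etfdh* of 0.153 ± 0.018 (limma adjusted p = 1.04e-05). It ran from 12.92 in BXD69 to 13.72 in BXD90. *Acsl1*, a long-chain acyl-CoA synthetase, was called with *Etfdh* (adjusted p = 0.0065). *Acsl5*, another synthetase, fell as *Cpt1a* rose (-0.530 ± 0.085, adjusted p = 0.0028) and was the one of the 5 called with the thermogenic score (0.403 ± 0.103, adjusted p = 0.0223).

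Among 5 further acyl-CoA dehydrogenases, *Acad11* was called with *Cpt2*, *Hadha* and *Etfdh* (adjusted p from 0.0086 to 0.0171), and *Acads*, the short-chain enzyme, with none of the 9. Of 4 auxiliary enzymes for unsaturated chains and isomers, *Decr1*, the dienoyl-CoA reductase, was called with the same 3 genes (adjusted p from 0.0015 to 0.0137). Of the later steps, *Hadh*, the dehydrogenase for short chains, was called with *Acaa2* (0.0681 ± 0.0135, adjusted p = 0.0325), and *Echs1*, the short-chain hydratase, with none. *Acat1*, the last thiolase of ketone and isoleucine breakdown, fell as the muscle score rose (-0.0855 ± 0.0205, adjusted p = 0.0142). *Etfa* and *Etfb*, the subunits of the electron transfer flavoprotein, were called with none of the 9, and their *r* with *Etfdh* was 0.27 and 0.07.

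Peroxisomes shorten very long chains. Among the peroxisomal genes listed, *Hsd17b4*, a multifunctional enzyme, and *Abcd3* were called with *Etfdh*, and *Abcd3*, a transporter of the peroxisomal membrane, also with *Cpt2* and *Hadha*. *Abcd3* rose with the thermogenic score (0.127 ± 0.031, limma adjusted p = 0.0142). None of the 9 control genes, which comprise PPARs, ERRs and their cofactors, was called with any of the 9 oxidation genes. With the thermogenic score, *Ppargc1b*, a coactivator (0.145 ± 0.025, adjusted p = 0.00071), *Pparg* (0.0898 ± 0.0221, adjusted p = 0.0167) and *Esrra* (0.0954 ± 0.0239, adjusted p = 0.0194) rose and *Nrip1*, a corepressor, fell (-0.0992 ± 0.0277, adjusted p = 0.0398). *Ppara* had a slope of -0.0162 ± 0.0312 on that score. With the muscle score *Pparg* and *Esrrg* fell, by slopes of -0.0967 and -0.0763 (adjusted p = 0.0055 and 0.0292). With the thermogenic and muscle scores entered together, *Ppargc1b* (limma adjusted p = 0.00816) and *Esrra* (0.043) were still called with the thermogenic score. *Abcd3* (0.076), *Pparg* (0.177) and *Nrip1* (0.235) were not, and each kept the sign of its slope. Neither *Pparg* (adjusted p = 0.129) nor *Esrrg* (0.1998) was then called with the muscle score.

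The genes most like the mean z-score of all 9 over the 35 strains, among 13515 genes above background, were *Slc25a20* (*r* = 0.85), *Adra1a*, an α1 adrenergic receptor (0.82), *Decr1* (0.82), *Slc25a17*, a peroxisomal carrier (0.78), and *Aifm2*, an oxidoreductase (0.75). Their *r* with *Cpt1a* alone lay between -0.03 and 0.06. Among the most opposite were *Dnajc27* (-0.78), *Pfn2*, a profilin (-0.77), and *Wbscr17* (-0.77). These are the ends of a ranking of strain means and are given without a test.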

How the data were processed

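Trizol RNA of individual animals was pooled evenly by cohort, cleaned, amplified from 100 ng and hybridised to Affymetrix arrays, read with Affymetrix Expression Console per the submitters' processing notes. A single deposited table gives 37 arrays (35 BXD strains, B6, D2) over 41345 probe sets. Its values are scores made by the authors, with the mean of every array set to 8 and its SD to 2. The summary method, log base and genome build are not given in the sources used here. Tests had been planned for log-scale values and use the scores as they are. Because each array was forced to the same mean and SD, a difference is relative to the whole array. Columns were assigned by strain name, and 0 columns were left unused. The 190 array controls were left out, which leaves 41155 probe sets, of which 28392 had a symbol, with the brightest standing for a gene.

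Arrays have no read depth, and their number limits the precision. A list's score is the mean z-score of its genes, scaled to an SD of 1. Each score, or each gene, was a continuous covariate in limma 3.58.1 (lmFit and eBayes, R 4.3.3) over the 35 BXD strains, with Benjamini-Hochberg adjustment over all probe sets but the covariate's own and a threshold of 0.05. The step was tested on simulated data. Pearson's *r* and Spearman's rho have two-sided p-values from 100000 permutations (scipy 1.17.1, Python 3.11.15). Correlations numbered 108 (the 9 genes with each score, *Ucp1*, *Acta1* and the first principal component) and 36 (pairs). Parents entered only the alternative that includes them. The genes named are the 9, relatives called with a score, the pathway's main steps, regulators, and the 5 most and 5 least alike in pattern, some of which are not reported here. Genes called with 1 of the 9 (such as *Acad11*, *Plin5*, *Cs*) were added after their values were seen. The genes and lists were chosen with earlier results of these data known. Alternatives were quantile normalization, centring on the median, both parents, BXD70, each strain or the 2 farthest strains left out, no dim probe sets, ranks, other list definitions, and, after seeing the data, the first principal component as a covariate.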

Additional observations from a re-analysis of the deposited data

How the results depend on the processing

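The count of the 9 genes called with the thermogenic score (1) was 0 without the 2 farthest strains or with the first principal component held, and 2 without BXD70, without dim probe sets, with *Ucp1* alone or without *Ppargc1a*. With the muscle score (0) it was 1 without dim probe sets and 2 on ranks. With the thermogenic score and muscle held (1) it was 0 with quantile normalization, with centring on the median, without the farthest strains, without BXD70 and on ranks, and 2 with both parents, without dim probe sets and without *Ppargc1a*. With the muscle score and the thermogenic held (0) it was 1 on ranks. Slope differences (2) numbered 1 with quantile normalization, without BXD70 or without *Ppargc1a*, and 0 without the farthest strains. With the respiratory chain (1) it was 0 with quantile normalization, without the farthest strains, on ranks or with the component, and 2 with centring or without dim probe sets. With the lipogenic score (1) it was 0 on ranks, and with the fasting score (0) it was 1 with quantile normalization, both parents or no dim probe sets. Called pairs (5) numbered 3 with quantile normalization, 0 without the farthest strains, 0 on ranks and 1 with the component. The median range (1.47-fold) was 1.32-fold without each gene's highest and lowest strain. The slope of *Acaa2* on the thermogenic score turned to -0.0066 with the component held. The cause of these shifts was not tested. The component (12.1% of the variance) has an *r* of -0.90 with the muscle score, so it was not entered in the muscle fits.

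With each strain left out in turn, the counts ran from 0 to 2 (thermogenic), 0 to 1 (muscle), 0 to 1 (thermogenic with muscle held), 1 to 2 (slope differences), 0 to 2 (respiratory chain), 0 to 1 (fasting, 1 without BXD61 or BXD97) and 1 to 6 (pairs). No paired analysis was possible because each strain is 1 array and no replicate numbers link the groups. With 1 array per strain, differences between single strains have no error.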
